A study of Mus musculus with 15 samples.

Results

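The transcription factor p53 and 9 genes that it is known to activate were followed from naive ESCs to PGCLCs. The set holds 10 of the 55536 genes counted and was chosen by gene name. It contains Trp53, which encodes p53, and the targets Mdm2, Cdkn1a, Bax, Bbc3, Pmaip1, Ccng1, Sesn2, Trp53inp1 and Zmat3. RNA-seq had been performed on 15 samples of the 4TF system, with 3 replicates in each of 5 groups. The cells were mouse ESCs with a Stella-eGFP reporter, the rtTA transactivator and 4 transgenes under control of Dox, encoding the factors Prdm1, Prdm14, Tfap2c and Nanog, in clonal lines. The ESC group was kept in 2i and LIF. The EpiLC group was made from ESCs over 48 hours with Activin A, bFGF and knockout serum replacement. The D2PGCLC, D4PGCLC and D6PGCLC groups were Stella-eGFP+ cells sorted from aggregates of EpiLCs after 2, 4 and 6 days in GK15 medium with Dox and without added cytokines. No aggregates without Dox and no sample exposed to DNA damage were analysed here, so the day of induction, the transgenes, the medium and the sort cannot be told apart.

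p53 is a transcription factor that is held at low protein levels by MDM2, the ubiquitin ligase encoded by its own target Mdm2. Stress such as DNA damage stabilises the protein, which then activates genes for cell cycle arrest, apoptosis, DNA repair and metabolism. Regulation of p53 is largely at the protein level, and a level of Trp53 mRNA does not give p53 activity. In the germ line, p53 and its relatives are known for the removal of damaged cells, and BAX for the death of misplaced primordial germ cells.

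Counts per sample summed to 22555021 to 42725681 over all genes. Totals were lowest in ESCs (22555021 to 29790085), and were 27839735 to 32594579 in EpiLCs, 28907803 to 34808685 in D2PGCLCs, 32146690 to 34245229 in D4PGCLCs and 32530096 to 42725681 in D6PGCLCs. One library stood apart. D6PGCLC replicate 1 had at least 1 count in 18061 genes, against 21103 to 24343 in the 14 other samples, with a total of 34476646. Called changes of the 10 genes on day 6 are therefore also given without it. Levels are TMM-normalized CPM, and an error after ± is the SD of 3 samples for a level and the standard error for a log2 fold change. All 10 genes passed the filter on low counts, and the lowest count of any of them in any sample was 245. The sources used here do not say that replicates came from separate cultures, and p-values then measure the spread between these samples.

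The labelled cell types were compared with their markers. The 5 EpiLC markers summed to 2967 ± 132 CPM in EpiLCs and to 140.2 ± 21.5 CPM in D2PGCLCs. The 7 PGC markers summed to 168 ± 4.43 CPM in ESCs and 327 ± 14.5 CPM in EpiLCs, and to 1061 ± 9.55, 1051 ± 51.7 and 927 ± 34.0 CPM on days 2, 4 and 6. Counts of Prdm1, Prdm14 and Tfap2c may include transgene reads, and Dppa3 (Stella), the most abundant over all samples, is the gene of the reporter on which the PGCLCs were sorted, so these 4 are no independent check. Of the other 3, Itgb3 was at 3.59 ± 0.239 CPM in EpiLCs and 130.1, 112 and 132 CPM in the 3 D2PGCLC samples, Dnd1 at 12.8 ± 1.41 and 38.2 ± 2.54 CPM, and Nanos3 at 1.26 ± 0.448 and 14.8 ± 1.40 CPM. The 5 naive ESC markers summed to 1480.0 ± 12.9 CPM in ESCs, 252 ± 12.8 CPM in EpiLCs and 1087 ± 52.7 CPM in D2PGCLCs, with Esrrb the most abundant over all samples but not in EpiLCs. Esrrb alone had 650, 578 and 631 CPM in the 3 D2PGCLC samples. At an adjusted p below 0.05 in edgeR's quasi-likelihood test, 4 of the 5 were higher in D2PGCLCs than in EpiLCs and 1 was lower, beside 27.2% and 26.0% of all tested genes.

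Markers of other cell types were low, and some sums were higher on day 6 than on day 4. The 5 endoderm markers summed to 18, 9.51 and 12.9 CPM in the 3 D6PGCLC samples, against 4.55 ± 0.105 CPM in D4PGCLCs, 3.00 ± 0.0125 CPM in EpiLCs and 6.11 ± 0.648 CPM in ESCs, and Gata6 was the most abundant on day 6. The 5 mesoderm markers summed to 13.8, 17.4 and 11.7 CPM on day 6, against 4.76 ± 1.11 CPM on day 4 and 3.38 ± 0.669 CPM in EpiLCs, and their mean was highest in ESCs, at 17.9 ± 0.489 CPM. Most of the sum on day 6 was Hand1, while T and Mesp1 were at or near 0 in every PGCLC sample. Neural, trophoblast and fibroblast markers summed to 11.1 ± 2.86, 21.5 ± 2.04 and 3.47 ± 0.692 CPM in D6PGCLCs, led by Pax6, Eomes and, over all samples, Thy1, with Neurog2, Cdx2 and Col3a1 at or near 0. In ESCs these 3 sums were 6.82 ± 0.692, 41.0 ± 2.32 and 9.31 ± 0.120 CPM, and in EpiLCs 21.7 ± 1.83, 13.1 ± 0.0842 and 20.2 ± 1.34 CPM. The part of such cells in the results on day 6 was not tested. In bulk samples, fewer cells of a type and less RNA per cell cannot be told apart.

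p53 binds a response element made of a pair of 10-base motifs. RefSeq promoters (GRCm38.p6, 250 bases before to 50 after a start site) were found for 7 of the 10 genes, and the best match to the full 20-base p53 response element without a spacer was located in each. The element is its own reverse complement, so both strands were searched together, and the C and G at the core of each motif had to match. The 7 genes had 10 promoters, and a promoter of each of Cdkn1a, Ccng1, Bbc3 and Trp53 had a match with at most 3 mismatches. The sequences are shown because these genes each hold such a match, and their mRNAs did not move alike. The set was chosen as p53 and its known targets, so a match is not independent of that choice. The limit of 3 mismatches was set after values were seen. The capitals mark the match, and each sequence is given 5′ to 3′ on the strand of its gene.
Cdkn1a: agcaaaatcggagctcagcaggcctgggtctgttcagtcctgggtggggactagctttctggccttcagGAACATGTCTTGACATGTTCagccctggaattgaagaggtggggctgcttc
Ccng1: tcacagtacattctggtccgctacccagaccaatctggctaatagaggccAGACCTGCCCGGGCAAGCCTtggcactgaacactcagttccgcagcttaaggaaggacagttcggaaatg
Bbc3: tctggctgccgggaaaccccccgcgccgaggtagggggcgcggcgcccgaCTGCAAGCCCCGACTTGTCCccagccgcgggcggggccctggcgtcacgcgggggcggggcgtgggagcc
Trp53: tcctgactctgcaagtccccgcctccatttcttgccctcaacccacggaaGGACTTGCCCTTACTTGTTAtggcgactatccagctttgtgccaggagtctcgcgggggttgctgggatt

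The sequences lie at chr17:29090859-29090978, chr11:40755412-40755531, chr7:16309436-16309555 and chr11:69580234-69580353, with Ccng1 on the minus strand. The sites of Cdkn1a (chr17:29090928-29090947) and Ccng1 (chr11:40755462-40755481) had 1 mismatch each. Of 32851 RefSeq promoters of the same length, 22, or 0.0670%, held a site with at most 1 mismatch. The sites of Bbc3 (chr7:16309486-16309505) and Trp53 (chr11:69580284-69580303) had 3 mismatches, and 453 promoters, or 1.38%, held a site with at most 3. Both percentages count single promoters, whereas Cdkn1a and Bbc3 had more than 1. The best match had 7 mismatches in the other Cdkn1a promoter, and 7 and 8 in the other Bbc3 promoters. In the GENCODE M21 annotation, the sites of Cdkn1a, Ccng1 and Trp53 lie outside any gene, 29, 151 and 56 bases upstream of their genes, and the site of Bbc3 lies in an intron of Bbc3. The best matches in the promoters of Mdm2, Bax and Sesn2 had 9, 7 and 9 mismatches. Sites outside these promoter windows, or with a spacer between the motifs, were not searched for. A match is a resemblance in letters, and no binding was measured. No promoter of Pmaip1, Trp53inp1 or Zmat3 was used here.

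Trp53 (ENSMUSG00000059552, chr11:69580359-69591873) was highest on day 2. Its level was 391, 378 and 358 CPM in the 3 ESC samples and 332, 349.7 and 311 CPM in the 3 EpiLC samples. In D2PGCLCs it was 598, 539 and 603 CPM, and 432, 493 and 489 CPM in D4PGCLCs. In D6PGCLCs it was 354, 353 and 397 CPM. All D2PGCLC samples lay above all D4PGCLC samples, these above the rest, and only the neighbours ESC and D6PGCLC overlapped in this order, in which EpiLCs were lowest. Among 11390 other genes with a mean of at least 100 counts, the smallest root mean square differences from the pattern of Trp53 over the 15 samples, on gene-centred log2(CPM + 1), belonged to Smarcb1 (0.0867), Xrcc5 (0.0930) and Sphk2 (0.0941). Smarcb1, a subunit of the SWI/SNF remodelling complex, went from 142 CPM in EpiLCs to 235 CPM in D2PGCLCs and 151 CPM in D6PGCLCs. The processed pseudogene Trp53-ps had at most 11 counts in any sample.

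Mdm2 (ENSMUSG00000020184, chr10:117688875-117710758), the feedback inhibitor of p53, had group means that were higher at each stage than at the one before. It was at 94.2, 94.4 and 96.2 CPM in ESCs and 129, 135 and 129 CPM in EpiLCs. It then reached 159.7, 154 and 174 CPM on day 2, 202, 179 and 208 CPM on day 4 and 236, 193 and 229 CPM on day 6. Only the samples of days 4 and 6 overlapped, so that neither the fall of Trp53 after day 2 nor that of other targets at day 2 was shared by Mdm2. The genes nearest in pattern were Trappc10 (root mean square difference 0.0906), Ube2e2 (0.116) and Tmx1 (0.117).

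Cdkn1a (ENSMUSG00000023067, chr17:29090976-29100727) encodes p21, an inhibitor of cyclin-dependent kinases and the standard readout of p53 in cell cycle arrest. ESC samples had 155, 145 and 171 CPM and EpiLC samples 54.0, 39.6 and 41.6 CPM. D2PGCLC samples had 13.2, 16.4 and 19.4 CPM, the lowest of all groups, where Trp53 was highest. The level was 27.8, 33.7 and 36.4 CPM on day 4 and 55.2, 50.6 and 51.4 CPM on day 6. Groups did not overlap in this order, except that D6PGCLCs and EpiLCs did. The nearest patterns were those of Ppp2r2c (root mean square difference 0.201), Slc6a8 (0.258) and St5 (0.320), each highest in ESCs and lowest on day 2. An annotated transcript on the opposite strand that shares 273 bases of exon with Cdkn1a had at most 7 counts in a sample.

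The members that act in apoptosis differed from each other. Pmaip1 (ENSMUSG00000024521) encodes NOXA, a BH3-only protein that opposes MCL1, and Bbc3 (ENSMUSG00000002083, chr7:16308393-16318205) encodes PUMA, which opposes several survival proteins. Pmaip1 was at 21.2, 20.0 and 22.4 CPM in ESCs and 80.5, 88.9 and 86.6 CPM in EpiLCs. It was 29.6, 36.2 and 31.9 CPM on day 2, 53, 60.2 and 50.1 CPM on day 4 and 63.6, 79.1 and 54.1 CPM on day 6. EpiLCs were above and ESCs below all other samples, and days 4 and 6 overlapped. Bbc3 was at 11.2, 10.7 and 14.8 CPM in ESCs and 30.9, 26.9 and 29.5 CPM in EpiLCs. Its PGCLC samples ranged widely, with 22.3, 14.4 and 27.9 CPM on day 2, 27.2, 29.2 and 39.4 CPM on day 4 and 46.6, 27.7 and 36.5 CPM on day 6, and every neighbour in the order of its means overlapped. Bax (ENSMUSG00000003873, chr7:45461697-45466898), which encodes the pore-forming effector of mitochondrial apoptosis, had group means of 35.0 to 40.5 CPM, and all neighbouring groups overlapped. Its samples ranged from 30.4 to 52.5 CPM, and both of these were D4PGCLC samples. The gene Gm45808, which shares 192 bases of exon with Bax on the same strand, had no counts.

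Ccng1 and Zmat3 had the shape of Pmaip1 after EpiLCs, with a low on day 2. Ccng1 (ENSMUSG00000020326, chr11:40748552-40755311) encodes cyclin G1, which brings the phosphatase PP2A to MDM2. It had 323, 298 and 268 CPM in EpiLCs and 135, 129 and 169 CPM in D2PGCLCs, with 196, 150.1 and 217 CPM on day 4, 274, 242 and 252 CPM on day 6 and 212, 224 and 208 CPM in ESCs. D6PGCLCs were above ESCs without overlap, while EpiLCs with D6PGCLCs, ESCs with D4PGCLCs and D4PGCLCs with D2PGCLCs overlapped. Zmat3 (ENSMUSG00000027663, chr3:32334792-32366014) encodes a zinc finger protein that binds RNA. Its level was 89.0, 88.1 and 74.0 CPM in ESCs and 116, 119 and 111 CPM in EpiLCs, then 50.3, 51.3 and 54.9 CPM on day 2, 61.7, 61.8 and 66.6 CPM on day 4 and 65.3, 70.2 and 78.1 CPM on day 6. All D2PGCLC samples were below all others, and D6PGCLCs overlapped with ESCs and with D4PGCLCs.

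Sesn2 had a wide spread among D2PGCLC replicates and Trp53inp1 among D4PGCLC replicates. Sesn2 (ENSMUSG00000028893, chr4:132492032-132510501) encodes sestrin 2, a leucine-binding inhibitor of mTORC1, and is known as a target of ATF4 as well as of p53. It had 91.7, 81.1 and 89.9 CPM in ESCs and 64.6, 65.9 and 69.4 CPM in EpiLCs. D2PGCLC samples had 192, 95.5 and 231 CPM, so that replicate 2 lay far below replicates 1 and 3. D4PGCLC samples had 138, 131 and 151 CPM and D6PGCLC samples 119, 79.2 and 124 CPM, where replicate 2 was again the lowest. EpiLCs were below every other sample, and days 4 and 6 did not overlap. The gene Gm12981, which overlaps Sesn2 on the same strand without shared exon bases, had 6 to 32 counts per sample. Trp53inp1 (ENSMUSG00000028211, chr4:11156431-11174379), has a stress-induced product that acts in apoptosis and autophagy. Its level was 191, 206 and 178 CPM in ESCs, 236, 299 and 261 CPM in EpiLCs, 191, 174 and 206 CPM on day 2, 262, 169 and 250.3 CPM on day 4 and 250.4, 242 and 266 CPM on day 6. All neighbours in the order of its means overlapped, and D4PGCLC replicate 2 was the lowest of the 15 samples.

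**Figure D1:**
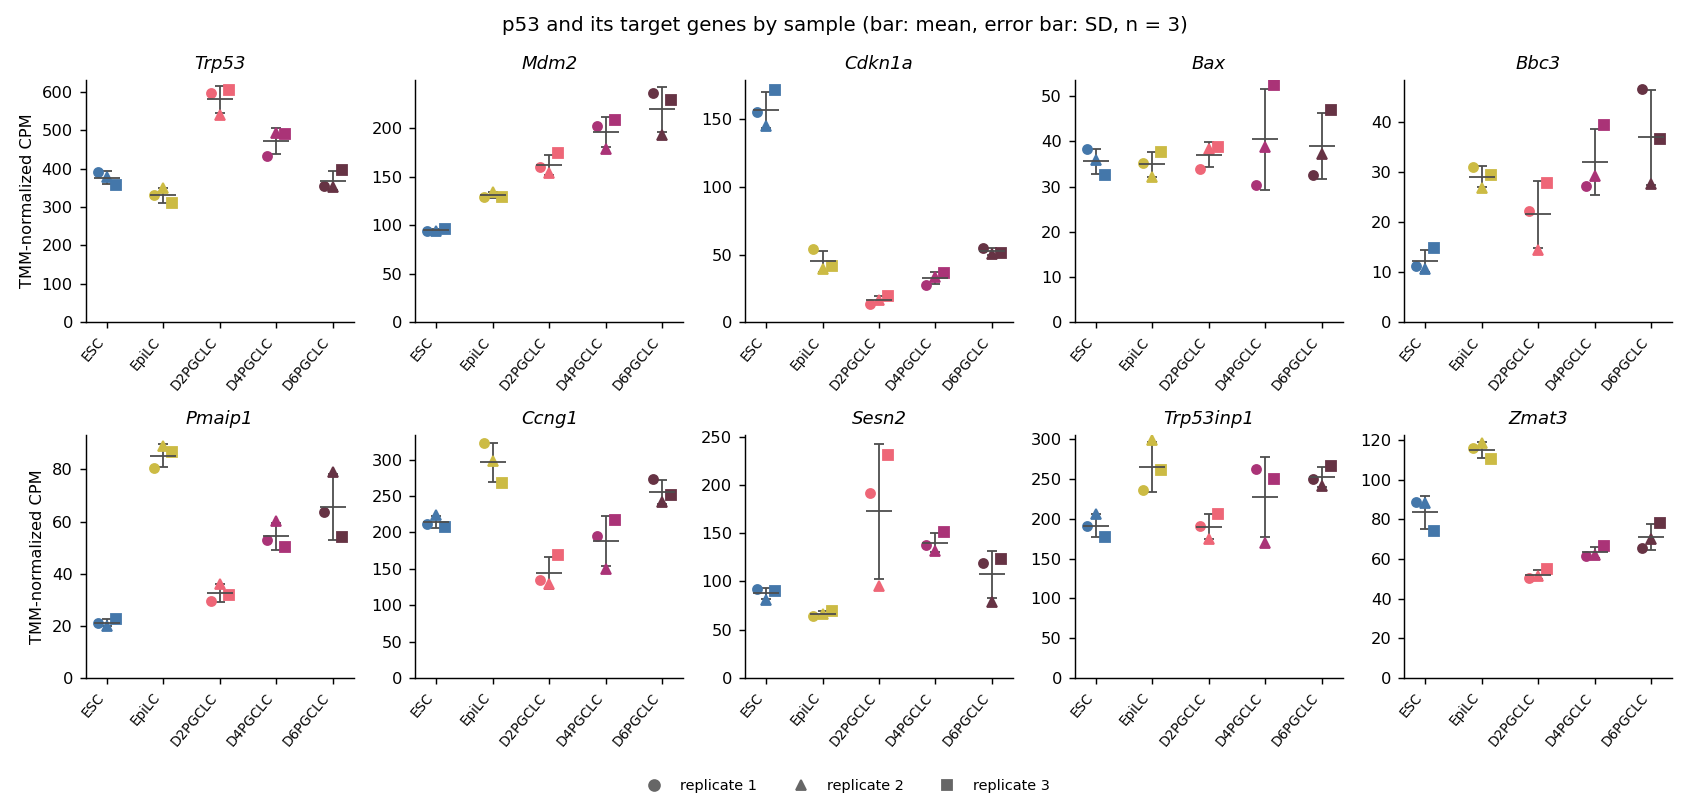
TMM-normalized CPM (vertical axes, from 0) of p53 and its 9 target genes in the 15 samples, with 1 point per replicate, a bar at the mean and the SD of 3 samples as error bar. Trp53 peaks in D2PGCLCs at 579.9 CPM, where Cdkn1a is lowest at 16.3 CPM, while the mean of Mdm2 climbs from 94.9 to 219 CPM.

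Levels were also divided by exon length, so that genes could be compared. This length joins all annotated exons of a gene, 1576 bases for Bax and 11435 for Zmat3, and the order of genes depends on it. In CPM without this division, Zmat3 (63.4) was above Cdkn1a (32.6) on day 4. In D2PGCLCs, Trp53 had the highest level of the 10 genes, 143 ± 8.88 CPM per kb, followed by Sesn2 at 49.7 ± 20.1 and Ccng1 at 41.0 ± 6.13 CPM per kb, which did not differ beyond their spread. Cdkn1a and Zmat3 were the lowest there, at 4.60 ± 0.882 and 4.56 ± 0.212 CPM per kb, within each other's spread. In EpiLCs, Ccng1 (84.4 ± 7.77 CPM per kb) and Trp53 (81.8 ± 4.77 CPM per kb) led and did not differ beyond their spread. In ESCs the level of Cdkn1a was 44.2 ± 3.74 CPM per kb, after Trp53 (92.9 ± 4.12) and Ccng1 (61 ± 2.40). Bbc3 had the lowest mean in ESCs, at 5.77 ± 1.04 CPM per kb, and did not differ beyond the spread from Zmat3 (7.32 ± 0.733 CPM per kb). On day 6, Trp53 (91.0 ± 6.19 CPM per kb) and Ccng1 (72.8 ± 4.58 CPM per kb) led again. Mdm2 (43.1 ± 4.57 CPM per kb) and Trp53inp1 (39.0 ± 1.91 CPM per kb) followed and did not differ beyond their spread. Mdm2 had been the fourth lowest of the 10 genes in ESCs, at 18.7 ± 0.213 CPM per kb. Zmat3 was the lowest on days 4 and 6, at 5.54 ± 0.244 and 6.23 ± 0.562 CPM per kb.

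The first comparison asks how the genes changed as ESCs left the naive state. In EpiLCs compared to ESCs, 6 of the 10 genes were higher, against 26.3% of all 18090 tested genes, and 1 was lower, against 26.2%. A gene was called at an adjusted p below 0.05 in edgeR's quasi-likelihood test, whatever its fold. The gene that fell was Cdkn1a (log2 fold change -1.80 ± 0.14, adjusted p = 2.2e-09). Pmaip1 rose most (log2 fold change 2.01 ± 0.12, adjusted p = 1.4e-10), about 4.02-fold, and Bbc3 rose by 1.24 ± 0.22 on the log2 scale (adjusted p = 9.6e-05). Mdm2, Ccng1, Trp53inp1 and Zmat3 rose by 0.46 to 0.47 on the log2 scale, with adjusted p from 0.00013 to 0.0044, and all 3 EpiLC samples lay above all ESC samples for each. Trp53 (log2 fold change -0.18 ± 0.08, adjusted p = 0.062), Sesn2 (-0.39 ± 0.21, adjusted p = 0.13) and Bax (-0.02 ± 0.16, adjusted p = 0.92) were not called. Samples of the 2 groups did not overlap for Trp53 and Sesn2, and when only these 2 groups were fitted both were called lower (adjusted p = 0.027 and 0.00024). The median log2 fold change of the 10 genes was 0.46, beside -0.01 over all tested genes.

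The second comparison covers the first 2 days of 4TF induction, where Trp53 rose and 5 of its targets in this set fell. In D2PGCLCs compared to EpiLCs, Trp53, Mdm2 and Sesn2 were higher, 3 of 10 against 27.2% of all genes. Cdkn1a, Pmaip1, Ccng1, Trp53inp1 and Zmat3 were lower, 5 of 10 against 26.0%. Trp53 rose 1.75-fold (log2 fold change 0.81 ± 0.08, adjusted p = 1.1e-07), while Cdkn1a fell by 1.46 on the log2 scale (SE 0.14, adjusted p = 6.4e-08). Pmaip1, Zmat3 and Ccng1 each fell to less than 1 in 2 of their EpiLC level, with log2 fold changes of -1.39 ± 0.12, -1.14 ± 0.09 and -1.04 ± 0.12 and adjusted p from 3.3e-09 to 7.5e-07. The fall of Trp53inp1 was smaller (log2 fold change -0.48 ± 0.13, adjusted p = 0.0038). Sesn2 rose by 1.38 ± 0.21 on the log2 scale (adjusted p = 2.6e-05), and each of its D2PGCLC samples, the low replicate 2 included, was above each EpiLC sample. The increase of Mdm2 was modest (log2 fold change 0.31 ± 0.08, adjusted p = 0.0043). For the 8 genes called, samples of the 2 groups did not overlap. The log2 difference of Bbc3 was -0.43 ± 0.21 (adjusted p = 0.094), which was called lower without D2PGCLC replicate 3 (adjusted p = 0.02). Bbc3 was also called lower with a block term for replicate number (log2 fold change -0.47, adjusted p = 0.020) and without the filter on low counts (adjusted p = 0.0069). Bax had 0.08 ± 0.16 (adjusted p = 0.69). The median over the 10 genes was -0.46, against 0.00 over all genes.

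The third comparison covers days 2 to 4. In D4PGCLCs compared to D2PGCLCs, 5 of the 10 genes were higher, against 7.26% of all genes, and 1 was lower, against 4.60%. This comparison shares its D2PGCLC samples with the one before, so a low value on day 2 enters both. Cdkn1a rose 2.00-fold (log2 fold change 1.00 ± 0.14, adjusted p = 0.00022) and Pmaip1 1.67-fold (log2 fold change 0.74 ± 0.12, adjusted p = 0.00063), and for both all D4PGCLC samples were above all D2PGCLC samples. Mdm2 (log2 fold change 0.27 ± 0.08, adjusted p = 0.041), Ccng1 (log2 fold change 0.38 ± 0.12, adjusted p = 0.044) and Zmat3 (log2 fold change 0.28 ± 0.09, adjusted p = 0.042) were called higher close to the threshold, and Trp53 was lower (log2 fold change -0.30 ± 0.08, adjusted p = 0.021). The 4 remaining genes were not called, with log2 fold changes from -0.30 (Sesn2) to 0.57 (Bbc3). Samples of days 2 and 4 with the same replicate number deviated alike, and with a block term for that number in the fit of all 15 samples Bbc3 was called higher (log2 fold change 0.59, adjusted p = 0.021), so that 6 of 10 were. The median of the 10 genes was 0.28, and 0.02 over all genes.

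Of these day 4 calls, those of Mdm2, Ccng1, Zmat3 and Trp53 were near the threshold and were lost with fewer samples, while the sign of each change stayed. That of Mdm2 was lost without D2PGCLC replicate 1, D2PGCLC replicate 2, D4PGCLC replicate 1 or D4PGCLC replicate 3 (adjusted p = 0.12, 0.14, 0.087 and 0.14, respectively), with log2 fold changes of 0.23 to 0.26. The call of Ccng1 was lost without D2PGCLC replicate 1, D2PGCLC replicate 2, D4PGCLC replicate 1 or D4PGCLC replicate 3 (adjusted p = 0.16, 0.16, 0.097 and 0.21, respectively), at 0.26 to 0.35. Zmat3 was no longer called whichever of the 6 samples was left out, without D2PGCLC replicate 1, D2PGCLC replicate 2, D2PGCLC replicate 3, D4PGCLC replicate 1, D4PGCLC replicate 2 or D4PGCLC replicate 3 (adjusted p = 0.15, 0.11, 0.058, 0.054, 0.075 and 0.15, respectively), at 0.25 to 0.32. Trp53 lost its call without D2PGCLC replicate 1, D2PGCLC replicate 3 or D4PGCLC replicate 1 (adjusted p = 0.082, 0.079 and 0.075, respectively), at -0.28 to -0.24. The calls of Cdkn1a and Pmaip1 held without each of these libraries. Calls were gained for Bbc3 without D2PGCLC replicate 3 (adjusted p = 0.032), for Sesn2, then lower, without D2PGCLC replicate 2 (adjusted p = 0.012) and for Trp53inp1 without D4PGCLC replicate 2 (adjusted p = 0.014). With DESeq2's size factors in place of TMM, 3 genes were called higher, without Mdm2 and Ccng1. When only the 2 groups were fitted, Cdkn1a and Pmaip1 alone were called higher and no gene lower.

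**Figure D2:**
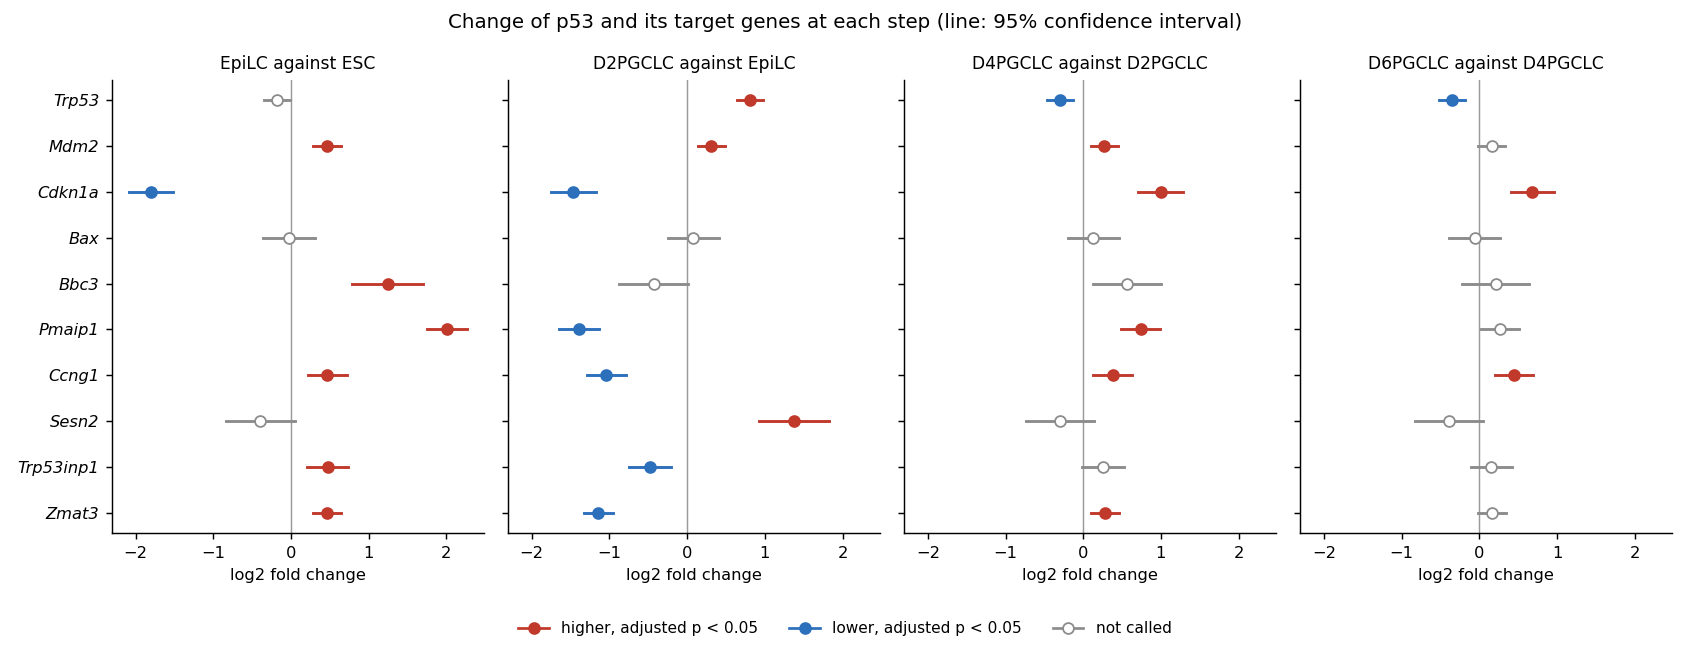
Log2 fold change (horizontal axes) of the 10 genes at each of the 4 successive steps, with its 95% confidence interval; red marks genes called higher, blue those called lower and open grey points those not called. Cdkn1a falls in both steps up to day 2 (-1.80 and -1.46) and rises in both after it (1.00 and 0.68), while Trp53 rises only from EpiLCs to day 2 (0.81).

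The fourth comparison covers days 4 to 6, where Cdkn1a rose again. In D6PGCLCs compared to D4PGCLCs, 2 of the 10 genes were higher, against 6.03% of all genes, and 1 was lower, against 6.82%. Cdkn1a rose 1.61-fold (log2 fold change 0.68 ± 0.13, adjusted p = 0.003) and Ccng1 1.36-fold (log2 fold change 0.45 ± 0.12, adjusted p = 0.019), while Trp53 fell (log2 fold change -0.36 ± 0.08, adjusted p = 0.007), with no overlap of samples for any of the 3. Without D6PGCLC replicate 1, the changes of Cdkn1a (0.64, adjusted p = 0.013) and Trp53 (-0.33, adjusted p = 0.035) kept their calls, and Ccng1 was not called (0.40, adjusted p = 0.074). With only these 2 groups fitted, neither Trp53 (log2 fold change -0.34, adjusted p = 0.061) nor Ccng1 (log2 fold change 0.46, adjusted p = 0.064) was called. Ccng1 also lost its call without D4PGCLC replicate 2 (adjusted p = 0.098), and Pmaip1 was called higher without D6PGCLC replicate 3 (adjusted p = 0.042). For Mdm2 the 95% confidence interval of the change was -0.02 to 0.33 (adjusted p = 0.23). The median of the 10 genes was 0.16, and -0.01 over all genes.

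The last comparisons set day 6 against both starting states, and share their D6PGCLC samples with each other and with the comparison of days 6 and 4. Compared to EpiLCs, 2 of the 10 genes were higher in D6PGCLCs, against 30.2% of all genes, and 2 were lower, against 27.2%, so both counts lay near the background. Mdm2 (log2 fold change 0.74 ± 0.08, adjusted p = 4.6e-07) and Sesn2 (log2 fold change 0.69 ± 0.21, adjusted p = 0.0097) were higher, and Zmat3 (log2 fold change -0.69 ± 0.09, adjusted p = 1.6e-06) and Pmaip1 (log2 fold change -0.38 ± 0.12, adjusted p = 0.0096) lower. Without D6PGCLC replicate 1 these 4 calls held, for Mdm2 (log2 fold change 0.70, adjusted p = 3.7e-06), Sesn2 (0.61, adjusted p = 0.034), Zmat3 (-0.63, adjusted p = 2.1e-05) and Pmaip1 (-0.35, adjusted p = 0.035). The call of Pmaip1 was lost without D6PGCLC replicate 3 (adjusted p = 0.077). Cdkn1a, at 52.4 ± 2.44 CPM on day 6 and 45.1 ± 7.77 CPM in EpiLCs, was not called (95% confidence interval of the log2 fold change -0.06 to 0.50), except without EpiLC replicate 1 (adjusted p = 0.028). Bbc3 was called higher without D6PGCLC replicate 2 (adjusted p = 0.047), and Ccng1 lower with only the 2 groups fitted (adjusted p = 0.039). Samples of D6PGCLCs and EpiLCs did not overlap for Mdm2, Sesn2, Zmat3 and Pmaip1. The median of the 10 genes was 0.15, and 0.03 over all genes.

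Compared to ESCs, 4 genes were higher in D6PGCLCs, against 27.7% of all genes, and 2 lower, against 26.0%. Pmaip1 (log2 fold change 1.63 ± 0.12, adjusted p = 2.7e-09), Bbc3 (log2 fold change 1.59 ± 0.22, adjusted p = 6.2e-06) and Mdm2 (log2 fold change 1.21 ± 0.08, adjusted p = 1.1e-09) were more than 2-fold higher, and Trp53inp1 rose less (log2 fold change 0.40 ± 0.13, adjusted p = 0.012). Cdkn1a stayed far below its level in ESCs (log2 fold change -1.59 ± 0.13, adjusted p = 1.3e-08), and Zmat3 was slightly lower (log2 fold change -0.23 ± 0.09, adjusted p = 0.03). Trp53 had a log2 fold change of -0.03 ± 0.08 (95% confidence interval -0.20 to 0.14). Without D6PGCLC replicate 1 calls held for Pmaip1 (log2 fold change 1.67, adjusted p = 1.1e-08), Bbc3 (1.40, adjusted p = 3.4e-05), Mdm2 (1.17, adjusted p = 6.7e-09), Trp53inp1 (0.43, adjusted p = 0.02) and Cdkn1a (-1.61, adjusted p = 1.2e-07). The call of Zmat3 was lost without ESC replicate 1, ESC replicate 2, D6PGCLC replicate 1 or D6PGCLC replicate 2 (adjusted p = 0.13, 0.11, 0.18 and 0.073, respectively) and with only the 2 groups fitted (adjusted p = 0.078), and that of Trp53inp1 without ESC replicate 3 (adjusted p = 0.052). Ccng1 was called higher with only the 2 groups fitted (adjusted p = 0.0055). Samples of D6PGCLCs and ESCs did not overlap for Pmaip1, Bbc3, Mdm2, Trp53inp1 and Cdkn1a, and did for Zmat3. The median of the 10 genes was 0.27, and 0.00 over all genes.

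Of 20 genes of the p53 family and its regulators, in EpiLCs compared to ESCs 8 were higher and 3 lower, beside 26.3% and 26.2% of all genes, and in D2PGCLCs compared to EpiLCs 5 were higher and 7 lower, beside 27.2% and 26.0%. Mdm4, which encodes the partner of MDM2 that blocks p53's activation domain, moved opposite to the median of the 10 chosen genes at these steps. It fell from 290.0 ± 13.6 CPM in ESCs to 132 ± 12.2 CPM in EpiLCs (log2 fold change -1.14 ± 0.12, adjusted p = 1.9e-07) and rose to 237 ± 32.9 CPM on day 2 (log2 fold change 0.85 ± 0.12, adjusted p = 7.2e-06). On day 6 it reached 388 ± 24.5 CPM, above EpiLCs (log2 fold change 1.56 ± 0.12, adjusted p = 3e-09), ESCs (log2 fold change 0.42 ± 0.12, adjusted p = 0.0052) and D4PGCLCs (log2 fold change 0.42 ± 0.12, adjusted p = 0.024), the last not without D4PGCLC replicate 2, D4PGCLC replicate 3, D6PGCLC replicate 2 or D6PGCLC replicate 3 (adjusted p = 0.12, 0.07, 0.064 and 0.073, respectively) or with only the 2 groups fitted (adjusted p = 0.066). Ppm1d, the gene of the phosphatase WIP1 that reverses p53 phosphorylation, stayed between 37.5 and 57.6 CPM in all samples, with an adjusted p of at least 0.28 in the 6 comparisons.

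The p53 relative Trp73 rose in EpiLCs (log2 fold change 1.19 ± 0.24, adjusted p = 0.00033) and fell by day 2 (log2 fold change -2.22 ± 0.25, adjusted p = 4.9e-07), at levels of 1.26 to 9.41 CPM, and was below EpiLCs on day 6 (log2 fold change -1.42 ± 0.24, adjusted p = 4.6e-05). Trp63, the third family member, had no counts in the 3 ESC samples and at most 32 counts in any sample. The deacetylase gene Sirt1 rose on day 2 (log2 fold change 1.03 ± 0.09, adjusted p = 8.6e-09), and it was above EpiLCs on day 6 (log2 fold change 0.70 ± 0.08, adjusted p = 1.1e-06). Trp53bp1, which acts at DNA breaks, rose in EpiLCs (log2 fold change 1.07 ± 0.09, adjusted p = 4.8e-09) and was above ESCs on day 6 (log2 fold change 0.62 ± 0.08, adjusted p = 5.7e-06). The checkpoint kinase gene Chek2 was lower on day 6 than in EpiLCs (log2 fold change -0.90 ± 0.10, adjusted p = 4.7e-07) and ESCs (log2 fold change -0.97 ± 0.10, adjusted p = 2.1e-07). Cdkn2a, whose product ARF restrains MDM2, fell in EpiLCs (log2 fold change -0.91 ± 0.13, adjusted p = 1.3e-05). Of the damage kinases, Atm fell on day 2 (log2 fold change -0.63 ± 0.14, adjusted p = 0.0012), and Atr was above ESCs on day 6 (log2 fold change 0.37 ± 0.11, adjusted p = 0.01), except without ESC replicate 1 (adjusted p = 0.062).

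Between days 2 and 4, 1 regulator was higher and 2 were lower, beside 7.26% and 4.60% of all genes, and 0 to 1 and 0 to 6 with 1 replicate left out. Between days 4 and 6 Mdm4 alone was called, beside 6.03% and 6.82%. On day 6 the list had 5 higher and 8 lower compared to EpiLCs, beside 30.2% and 27.2%, and 6 higher and 4 lower compared to ESCs, beside 27.7% and 26.0% (2 lower without D6PGCLC replicate 1). From day 2 to day 4, Cdkn2a was higher (log2 fold change 0.42 ± 0.13, adjusted p = 0.045), but not without D2PGCLC replicate 1, D2PGCLC replicate 2, D2PGCLC replicate 3, D4PGCLC replicate 2 or D4PGCLC replicate 3 (adjusted p = 0.11, 0.12, 0.083, 0.11 and 0.18, respectively) or with only the 2 groups fitted (adjusted p = 0.072). Crebbp, the gene of an acetyltransferase that acts on p53, was lower (log2 fold change -0.38 ± 0.11, adjusted p = 0.031), but not without D2PGCLC replicate 1, D2PGCLC replicate 2, D4PGCLC replicate 2 or D4PGCLC replicate 3 (adjusted p = 0.16, 0.069, 0.094 and 0.099, respectively). Sirt1 was lower (log2 fold change -0.33 ± 0.08, adjusted p = 0.016), but not without D2PGCLC replicate 1, D2PGCLC replicate 3, D4PGCLC replicate 2 or D4PGCLC replicate 3 (adjusted p = 0.058, 0.051, 0.075 and 0.057, respectively) or with only the 2 groups fitted (adjusted p = 0.056). Median log2 fold changes of the list lay between -0.13 (D6PGCLCs against EpiLCs) and 0.17 (EpiLCs against ESCs) over the 6 comparisons, and were the same with Trp63 at the bound given by a floor of 3 counts per sample.

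Of 35 other p53 targets, 34 were tested, and Fas, with at most 9 counts in a sample, did not pass the filter. In EpiLCs compared to ESCs 13 were higher and 12 lower, beside 26.3% and 26.2% of all genes, and in D2PGCLCs compared to EpiLCs 7 were higher and 12 lower, beside 27.2% and 26.0%. Between days 2 and 4, 9 were higher and 1 lower, shares above the 7.26% and below the 4.60% of all genes, and 5 to 10 and 0 to 1 with 1 replicate left out. Between days 4 and 6, 7 were higher and 6 lower, beside 6.03% and 6.82%, and without D6PGCLC replicate 1 these were 4 and 3. On day 6 there were 13 higher and 9 lower compared to EpiLCs, beside 30.2% and 27.2%, and 12 higher and 8 lower compared to ESCs, beside 27.7% and 26.0%. The medians were -0.03, -0.09, 0.26 and 0.04 at the 4 steps and 0.24 and 0.18 on day 6 against EpiLCs and ESCs, beside 0.02 over all genes from day 2 to day 4.

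The genes named from this list did not move alike. Steap3, which encodes a metal reductase, went from 3.04 ± 0.0639 CPM in ESCs to 68.6 ± 2.47 CPM in EpiLCs (log2 fold change 4.49 ± 0.16, adjusted p = 5.3e-14), was 25.4 ± 4.97 CPM on day 2 and rose on day 4 (log2 fold change 0.75 ± 0.13, adjusted p = 0.001), reaching 59.6 ± 6.50 CPM on day 6 (log2 fold change 4.29 ± 0.16, adjusted p = 1.8e-13 compared to ESCs). The polo-like kinase gene Plk2 fell from 27.2 ± 1.22 CPM in EpiLCs to 6.55 ± 2.47 CPM on day 2 (log2 fold change -2.05 ± 0.28, adjusted p = 5e-06). It was higher on day 4 (log2 fold change 0.86 ± 0.28, adjusted p = 0.049) and again on day 6 (log2 fold change 1.12 ± 0.26, adjusted p = 0.01), and above ESCs there (log2 fold change 1.39 ± 0.27, adjusted p = 0.00026). Its call on day 4 was lost without D2PGCLC replicate 1, D2PGCLC replicate 2, D4PGCLC replicate 1 or D4PGCLC replicate 3 (adjusted p = 0.17, 0.17, 0.077 and 0.23, respectively), with only the 2 groups fitted (adjusted p = 0.09) and with DESeq2's size factors (adjusted p = 0.052), and that from day 4 to day 6 without D4PGCLC replicate 2 (adjusted p = 0.053). The antiproliferative gene Btg2 rose on day 4 (log2 fold change 0.80 ± 0.19, adjusted p = 0.0096), except without D2PGCLC replicate 1 or D4PGCLC replicate 3 (adjusted p = 0.055 and 0.064, respectively) or with only the 2 groups fitted (adjusted p = 0.055). Ephx1, the microsomal epoxide hydrolase gene, rose on day 4 (log2 fold change 0.86 ± 0.18, adjusted p = 0.0053) and Eda2r, a receptor gene of the TNF family, on day 6 compared to day 4 (log2 fold change 0.64 ± 0.14, adjusted p = 0.0051).

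Sfn, the gene of 14-3-3 sigma, rose on day 2 (log2 fold change 2.30 ± 0.14, adjusted p = 2.2e-10) and fell from day 4 to day 6 (log2 fold change -0.70 ± 0.14, adjusted p = 0.0024). On day 6 it was still above EpiLCs (log2 fold change 1.67 ± 0.14, adjusted p = 1.2e-08). Perp, which encodes a membrane protein of desmosomes, rose in EpiLCs (log2 fold change 1.92 ± 0.27, adjusted p = 6.4e-06) and again on day 2 (log2 fold change 1.82 ± 0.22, adjusted p = 1.3e-06), and was at 19.1 ± 2.93 CPM on day 6 (log2 fold change 2.08 ± 0.22, adjusted p = 1.9e-07 compared to EpiLCs and log2 fold change 4.00 ± 0.26, adjusted p = 2.8e-10 compared to ESCs). Gadd45a, a growth arrest gene, was 7.02 ± 1.71 CPM in ESCs and 78.5 ± 5.81 CPM in EpiLCs (log2 fold change 3.47 ± 0.19, adjusted p = 2.4e-11), and 93.5 ± 10.7 CPM on day 6 (log2 fold change 3.72 ± 0.19, adjusted p = 1.3e-11 compared to ESCs). The stress cytokine gene Gdf15 fell in EpiLCs (log2 fold change -2.33 ± 0.41, adjusted p = 0.00011), rose on day 2 (log2 fold change 2.55 ± 0.41, adjusted p = 3.9e-05) and was above EpiLCs on day 6 (log2 fold change 2.77 ± 0.41, adjusted p = 1.2e-05), and like Sesn2 was lowest in replicate 2 on day 2, with 9.22, 3.62 and 13.4 CPM. Ddit4, whose product inhibits mTORC1, was lower on day 6 than in EpiLCs (log2 fold change -1.07 ± 0.25, adjusted p = 0.0011) and than on day 4 (log2 fold change -0.91 ± 0.25, adjusted p = 0.021), the last not without D4PGCLC replicate 2, D4PGCLC replicate 3, D6PGCLC replicate 1 or D6PGCLC replicate 2 (adjusted p = 0.054, 0.056, 0.092 and 0.078, respectively).

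**Figure D3:**
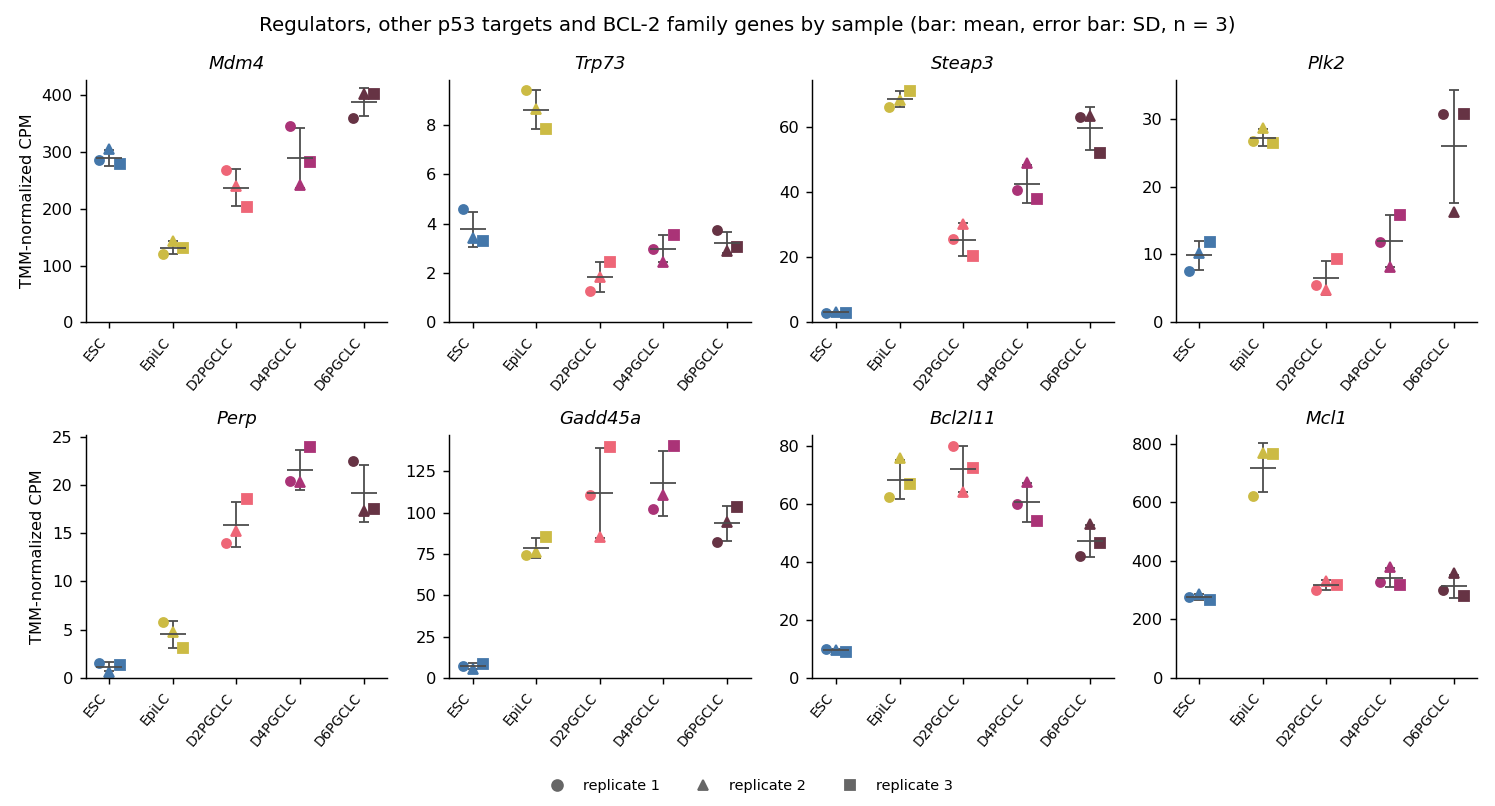
TMM-normalized CPM (vertical axes, from 0) of 8 genes of the wider lists in the 15 samples, drawn as in the plot of p53 and its targets. Steap3 and Plk2 are low on day 2 and higher on day 6, Mdm4 is lowest in EpiLCs at 132 CPM, and Mcl1 is highest there at 719 CPM.

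Of 16 BCL-2 family and caspase genes, in EpiLCs compared to ESCs 5 were higher and 6 lower, beside 26.3% and 26.2% of all genes. The BH3-only genes Bcl2l11 (encoding BIM, log2 fold change 2.84 ± 0.12, adjusted p = 1.1e-12) and Bmf (log2 fold change 2.13 ± 0.11, adjusted p = 1.4e-11) rose, and so did the survival gene Mcl1 (log2 fold change 1.38 ± 0.10, adjusted p = 1.6e-09). Bik, another BH3-only gene, had 6, 1 and 1 counts in the 3 ESC samples and 1.69 ± 0.201 CPM in EpiLCs (log2 fold change 4.03 ± 0.39, adjusted p = 7.1e-08, a fold that rests on these few counts), 6.68 ± 0.841 CPM on day 2 and 6.08 ± 0.602 CPM on day 6. In D2PGCLCs compared to EpiLCs 5 were higher and 5 lower, beside 27.2% and 26.0%, of which Bik rose (log2 fold change 1.98 ± 0.24, adjusted p = 1.4e-06), and Bok (log2 fold change -1.45 ± 0.18, adjusted p = 1.4e-06) and Mcl1 (log2 fold change -1.18 ± 0.10, adjusted p = 1.4e-08) fell. Mcl1 and Pmaip1, whose products bind each other, were thus both highest in EpiLCs, at 719 ± 83.5 and 85.3 ± 4.30 CPM.

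From day 2 to day 4, 2 of the 16 rose, beside 7.26% of all genes, namely Bok (log2 fold change 1.14 ± 0.18, adjusted p = 0.00046) and Bmf (log2 fold change 0.44 ± 0.10, adjusted p = 0.0097), the latter not without D2PGCLC replicate 3 (adjusted p = 0.053). From day 4 to day 6, when 6.03% and 6.82% of all genes were called higher and lower, the 1 called gene was Bcl2l11 (log2 fold change -0.36 ± 0.11, adjusted p = 0.038), not called without D4PGCLC replicate 1, D4PGCLC replicate 2, D6PGCLC replicate 1 or D6PGCLC replicate 3 (adjusted p = 0.063, 0.17, 0.16 and 0.094, respectively) or with only the 2 groups fitted (adjusted p = 0.1). On day 6, 5 genes were higher and 6 lower both compared to EpiLCs, beside 30.2% and 27.2%, and compared to ESCs, beside 27.7% and 26.0%. Against EpiLCs, Bik (log2 fold change 1.85 ± 0.24, adjusted p = 2.5e-06) and Diablo (log2 fold change 1.16 ± 0.28, adjusted p = 0.0015) were higher, and Mcl1 (log2 fold change -1.20 ± 0.10, adjusted p = 9.9e-09) was lower. Against ESCs, Bik (log2 fold change 5.87 ± 0.36, adjusted p = 1.3e-10, with the same few counts in ESCs), Bmf (log2 fold change 2.31 ± 0.11, adjusted p = 5.8e-12) and Bcl2l11 (log2 fold change 2.31 ± 0.12, adjusted p = 2.1e-11) were higher, and the effector gene Bak1 was lower (log2 fold change -1.22 ± 0.13, adjusted p = 4.3e-07). Medians of the list were -0.09 to 0.18 over the 6 comparisons.

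**Figure D4:**
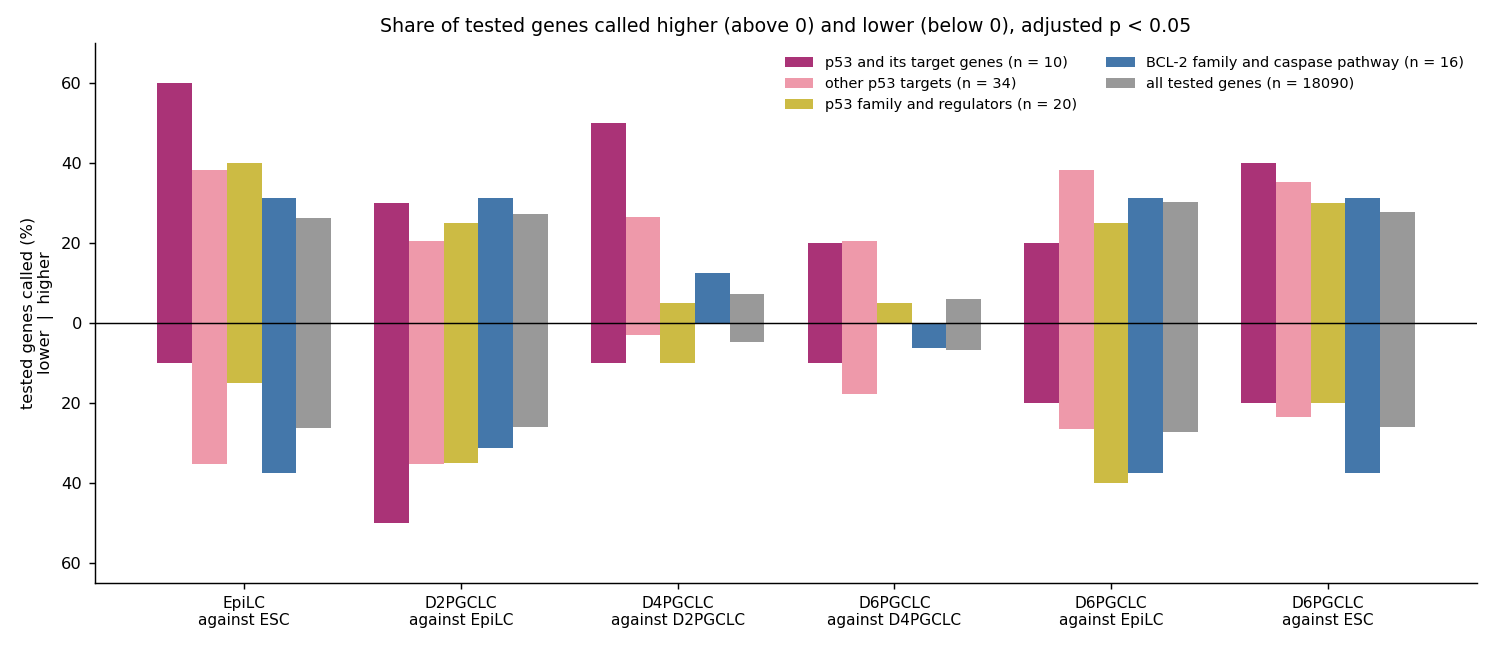
Percent of tested genes called higher (bars above 0) and lower (bars below 0) at an adjusted p below 0.05 in the 6 comparisons, for p53 and its target genes (n = 10), 3 wider lists and all 18090 tested genes. The share of p53 and its targets called higher from day 2 to day 4 (5 of 10) stands beside 7.26% of all genes, and the share called lower on day 2 (5 of 10) beside 26.0%; with 10 genes, each gene is 1 step of the bar.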

How the data were processed

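The authors purified RNA with TRIzol, prepared directional libraries and deposited raw counts per gene, without normalization. The submitters' processing notes name Trim Galore, FastQC, STAR and the mm10 genome. The counting tool and its handling of strand and of multi-mapped reads are not given in the sources used here. All 55536 gene identifiers matched GENCODE M21 on the same genome, the source of symbols, positions and exon lengths.

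Counts of all 15 samples were fitted in 1 model with edgeR 4.0.16 in R 4.3.3, with 1 coefficient per group, TMM normalization, the filterByExpr minimum of 10 counts and the quasi-likelihood test. P-values were adjusted by Benjamini-Hochberg over the 18090 genes tested, for 6 comparisons that share groups. The fits were tested on simulated counts. A gene with at most 3 counts in each sample of a group is set at that floor, at most 0.132 CPM, which covers counting error only. Chi-square between replicates was 8.82 to 44.6 per gene, above sampling noise. The labels do not pair samples. Deviations from group means of samples with the same replicate number correlated at 0.255 to 0.299 between days 2 and 4, which was taken to pair these groups only, and not in all 3 pairs above 0.1 between other groups compared. Between days 4 and 6, numbers 2 and 3 were above it, at 0.358 and 0.350, and number 1 was not, at 0.0187.

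Named from each wider list were up to 4 genes per comparison with the largest fold change among those called and of mean at least 100 counts, with Mdm4 and Ppm1d, and for Trp53, Mdm2 and Cdkn1a the 3 genes of nearest pattern. The values of 1 gene that this rule names are not reported here. The genes and lists were chosen with earlier results of these data known, and the ATF4 target list and the number of mismatches allowed in a site after values were seen. Alternatives were DESeq2 1.42.0, its size factors in edgeR, no filter, a block term for replicate number, fits of 2 groups at a time, a fold cutoff, and each replicate left out.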

Additional observations from a re-analysis of the deposited data

How the results depend on the processing

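No change of the 10 genes that was called was called in the opposite direction in any alternative run. Of 690 values under alternatives other than the fold cutoff, 37 lost a call and 21 gained one, and under that cutoff 22 more of 60 lost theirs. DESeq2 gave the same 60 calls and non-calls of the 10 genes in 6 comparisons. With DESeq2's size factors in edgeR 2 calls were lost, and the number called higher from day 2 to day 4 was 3 in place of 5. Without a filter 3 calls were lost (Mdm2 and Zmat3 on day 4 and Zmat3 on day 6 against ESCs) and 8 gained (for Sesn2, Bbc3 or Ccng1), and the number called lower became 2 in place of 1 in EpiLCs against ESCs, on day 4 against day 2 and on day 6 against day 4, and 1 in place of 2 on day 6 against ESCs. It was 6 in place of 5 on day 2 against EpiLCs, and the number called higher was 4 in place of 5 on day 4 against day 2, 3 in place of 2 on day 6 against EpiLCs and 6 in place of 4 on day 6 against ESCs. With only the 2 groups fitted 7 calls were lost and 4 gained. The number called lower was then 3 in EpiLCs against ESCs, 0 on day 4 against day 2, 0 on day 6 against day 4 (Trp53 lost its call), 3 on day 6 against EpiLCs and 1 on day 6 against ESCs, and the number called higher was 2 on day 4, 1 on day 6 against day 4 and 5 on day 6 against ESCs. DESeq2 called 1 gene lower where this count was 0. Without a filter more genes are tested and with 2 groups fewer samples are fitted. DESeq2's size factors in edgeR use the same genes and samples as the main fit. The DESeq2 test used the same samples, but the count table before the filter on low counts. The cause of each moved count was not tested.

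A cutoff of 1 on the absolute log2 fold change left 2 genes higher in EpiLCs against ESCs and 1 higher on day 2 against EpiLCs. It left 0 higher and 0 lower on day 4 against day 2, 0 and 0 on day 6 against day 4, and 0 and 0 on day 6 against EpiLCs. On day 6 against ESCs, 1 was lower. Under this cutoff Cdkn1a stayed called lower in EpiLCs against ESCs, and Cdkn1a, Pmaip1, Zmat3 and Ccng1 lower on day 2 against EpiLCs. Pmaip1, Bbc3 and Mdm2 stayed called higher on day 6 against ESCs.

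With each replicate left out in turn, the number called higher from day 2 to day 4 ranged from 2 to 5 and that called lower from 0 to 2. From day 4 to day 6, 1 to 3 were higher and 1 was lower. On day 6 against EpiLCs 2 to 3 were higher and 1 to 2 lower, and against ESCs 3 to 4 were higher and 1 to 2 lower. In EpiLCs against ESCs 6 were higher and 1 lower each time, and on day 2 against EpiLCs 3 were higher and 5 to 6 lower. Leaving D6PGCLC replicate 1 out of the comparisons without day 6, an alternative chosen after seeing the data, changed no call of the 10 genes.

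Replicate numbers are shared by the groups. Deviations from the group means had a correlation above 0.1 in 8 of 30 pairs of samples with the same number (mean 0.0703) and in 4 of 60 other pairs (mean -0.0352). Of 15 samples, 9 correlated best with a sample of their own number. The numbers were taken to pair only the samples of days 2 and 4, where all 3 pairs were above 0.1. Between days 4 and 6, numbers 2 and 3 correlated at 0.358 and 0.350, and number 1, with D6PGCLC replicate 1, at 0.0187. Between days 2 and 6 these were 0.320, 0.177 and 0.0601. Whether numbers 2 and 3 pair the samples up to day 6 was not tested. With the replicate block 2 calls were gained, Bbc3 lower on day 2 (6 lower in all) and higher on day 4 (6 higher in all), and no other call of the 10 genes changed. The lowest count of the 10 genes in a sample was 245, whereas Trp63 and Fas had at most 32 and 9 counts.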

Other observations

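Sesn2 and Ddit4 are also known as targets of ATF4, the transcription factor of the amino acid and unfolded protein responses. A list of 7 ATF4 targets, chosen after the values of Sesn2 were seen, summed to 1567, 1571 and 1569 CPM in ESCs and 707, 698 and 699.8 CPM in EpiLCs. In D2PGCLCs the sums were 2493, 1578 and 3059 CPM, so replicate 2 lay well below replicates 1 and 3, as it did for Sesn2, Gdf15 and Bbc3. They were 1964, 1873 and 2137 CPM in D4PGCLCs and 1344, 993 and 1409.6 CPM in D6PGCLCs, where replicate 2 was again lowest. In D2PGCLCs compared to EpiLCs 5 of the 7 were higher, against 27.2% of all genes, and in D6PGCLCs compared to D4PGCLCs 5 were lower, against 6.82%. Asns, the asparagine synthetase gene, was the most abundant of them in D2PGCLCs, with 146, 158 and 143 CPM in EpiLCs and 1414, 982 and 1693 CPM in D2PGCLCs. Trib3 had 88.9, 26.3 and 135 CPM and Chac1 64.3, 19.6 and 86.5 CPM in the same 3 samples, against means of 14.5 and 7.63 CPM in EpiLCs. Of p53 and its other targets, Trp53, Mdm2, Ccng1 and Trp53inp1 were also lowest in replicate 2 on day 2, at 539, 154, 129 and 174 CPM. In the same sample, Bax, Cdkn1a, Zmat3 and Pmaip1 were not the lowest of the 3 samples, at 38.4, 16.4, 51.3 and 36.2 CPM. Which p53 targets follow ATF4 in these samples was not tested.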
